A study of Mus musculus with 6 samples.

Results

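Pmp22 and the epithelial membrane protein genes Emp1, Emp2 and Emp3 code for 4 closely related membrane proteins, 4 of the 19053 genes that the array annotation names with a probe of their own. They were read by 6 probes on a whole-genome Illumina BeadChip, on which short probes on beads bind labelled RNA. Pmp22 had 2 probes, Emp1 and Emp2 had 1 each and Emp3 had 2. Pmp22 was chosen by the intensities of its probes in the comparison described here, where they disagreed, so its values are a description with no test. The Emp genes were taken as the relatives of Pmp22 in sequence and were tested.

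The RNA came from colon tumors of 3 WT and 3 Chrm3-/- mice, with 1 array per mouse. Chrm3-/- mice lack the M3 muscarinic acetylcholine receptor, and both genotypes shared the mixed 129S6/SvEvTac X CF1:50%/50% strain. By the methods, all mice were males given AOM (azoxymethane), a carcinogen that acts on the colon, so no array shows untreated colon. Their age is labelled as 7 months, which is older than the injection schedule in the methods gives. The comparison asks which tumor transcripts differ when the receptor is missing.

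PMP22 is best known as a component of the myelin that Schwann cells wrap around peripheral nerves, and mutation or duplication of its gene in humans causes inherited neuropathy. It was also found, under the name Gas3, among genes induced when fibroblasts stop growing, and epithelial cells make it at their junctions. The EMP proteins share its form, a small protein that passes through the membrane several times, which the claudins of tight junctions also have. In rat and human, Pmp22 transcripts start from alternative first exons that lie ahead of the same coding sequence, and one of them is used mainly in Schwann cells.

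Pmp22 lies on mouse chromosome 11, Emp1 on chromosome 6, Emp2 on chromosome 16 and Emp3 on chromosome 7. RefSeq's promoter table for GRCm38.p6 lists 4 start sites for Pmp22, 2 for Emp1, 1 for Emp2 and 2 for Emp3. Each window in that table holds 300 bases, from 250 before a start to 50 after it. The windows of the first and second Pmp22 starts are shown because they differ in CG content, and those of the first Emp1 and Emp3 starts because each holds a match to one of the motifs searched. Which of these starts gave the RNA was not measured.
Pmp22, the first start, chr11:63128732-63129031, + strand: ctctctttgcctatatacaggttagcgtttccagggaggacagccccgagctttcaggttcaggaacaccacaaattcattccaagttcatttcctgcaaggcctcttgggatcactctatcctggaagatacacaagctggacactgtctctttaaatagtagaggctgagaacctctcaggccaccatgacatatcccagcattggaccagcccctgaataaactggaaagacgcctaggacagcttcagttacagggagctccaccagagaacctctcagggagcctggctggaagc
Pmp22, the second start, chr11:63131207-63131506, + strand: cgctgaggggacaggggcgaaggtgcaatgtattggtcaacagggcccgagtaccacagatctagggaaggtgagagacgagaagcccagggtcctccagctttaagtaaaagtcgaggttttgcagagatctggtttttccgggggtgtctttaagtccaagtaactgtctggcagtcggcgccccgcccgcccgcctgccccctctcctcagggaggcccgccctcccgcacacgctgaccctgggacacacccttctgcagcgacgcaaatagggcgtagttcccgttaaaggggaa
Emp1, the first start, chr6:135362681-135362980, + strand: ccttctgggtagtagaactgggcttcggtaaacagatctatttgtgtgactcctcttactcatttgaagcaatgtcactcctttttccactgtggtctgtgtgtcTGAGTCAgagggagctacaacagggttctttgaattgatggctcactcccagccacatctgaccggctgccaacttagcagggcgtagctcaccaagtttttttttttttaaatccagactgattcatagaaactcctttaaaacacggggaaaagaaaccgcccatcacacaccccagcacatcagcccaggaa
Emp3, the first start, chr7:45921377-45921676, - strand: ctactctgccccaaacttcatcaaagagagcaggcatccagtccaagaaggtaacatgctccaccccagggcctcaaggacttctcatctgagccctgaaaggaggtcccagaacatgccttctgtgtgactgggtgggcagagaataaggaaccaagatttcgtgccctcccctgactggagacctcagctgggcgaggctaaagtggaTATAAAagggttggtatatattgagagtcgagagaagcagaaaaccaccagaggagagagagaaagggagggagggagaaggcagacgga

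The window of the first Pmp22 start held 3 CG dinucleotides, and 31.4% of all 32851 windows held as few. The windows of the other Pmp22 starts held 18, 20 and 30, against a median of 7 over all windows. Capitals in the sequences mark matches on either strand to TATAAA, the TATA box, or to TGAGTCA, the site that AP-1 factors bind. The Emp1 window holds 1 match to TGAGTCA, found in 5.2% of all windows, and the Emp3 window holds 1 match to TATAAA, found in 13.6%. Neither motif was in the 4 Pmp22 windows, in the Emp2 window or in the windows of the second Emp1 and Emp3 starts. A match is a run of letters and was not tested as a binding site.

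Values below are normalized intensities on a linear scale, in arbitrary units, and fold changes were computed as log2(value + 50), which makes them smaller for dim probes. The brighter 22641 of 45281 probes, by their mean log2 value, were tested, and all 6 probes of the 4 genes were among them. Over these probes limma called 28 in either direction at an adjusted p under 0.05, which is 0.124%. On 10.7% the arrays of the genotypes did not overlap, and on 5.2% each Chrm3-/- array exceeded each WT array.

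Chrm3-/- replicate 1 stood apart from the other arrays. It lay at 87.8 on the first principal component, which held 53.0% of the variance, against -45.5 to -6.15 for the rest. WT arrays correlated with each other at 0.977 to 0.985 and Chrm3-/- arrays at 0.894 to 0.944. Some epithelial markers were bright on all arrays, with Cdh1 at 2332 to 3041. Others were not, with Cdx2 at 2680 in Chrm3-/- replicate 1 and 56.5 in Chrm3-/- replicate 2, and the probe of Epcam at most 12.1. The single Chrm3 probe read 1.80 to 9.06 in WT and 21.9 to 32.1 in Chrm3-/- tumors, and no source used here says whether it falls inside the deletion, so it is no check of the labels.

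Pmp22 signal was higher in every Chrm3-/- tumor than in every WT tumor at its first probe (ILMN_1228535), and not at its second (ILMN_2661299). The first probe read 140.1, 218 and 287 in WT replicates 1, 2 and 3, with a mean of 215 ± 73.6 (SD, n = 3). In Chrm3-/- replicates 1, 2 and 3 it read 5569, 764 and 1300.0, with a mean of 2544 ± 2633 (SD, n = 3). The groups did not overlap, and replicate 1 was the highest Chrm3-/- array, at 19.4 times the median of the other 5 arrays. Chrm3-/- exceeded WT by 2.83 on the log2 scale (standard error 0.68), a ratio of means of 11.8. Without Chrm3-/- replicate 1 the Chrm3-/- mean was 1032 and the log2 difference 2.02.

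The second Pmp22 probe read 355, 501 and 812 in WT replicates 1, 2 and 3, a mean of 556 ± 233 (SD, n = 3). On the Chrm3-/- arrays it read 1886, 199 and 468, a mean of 851 ± 906 (SD, n = 3). Replicate 1 was again the highest Chrm3-/- array, but replicate 2 was the lowest of all 6 and replicate 3 lay within the WT values, so the groups overlapped. The log2 difference was 0.12 (standard error 0.72), and it became -0.69 without Chrm3-/- replicate 1. Tumor RNA was taken from resected tissue, and the methods name no separation of cell types. In such RNA, more cells that make a transcript and more transcript per cell cannot be told apart.

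**Figure D1:**
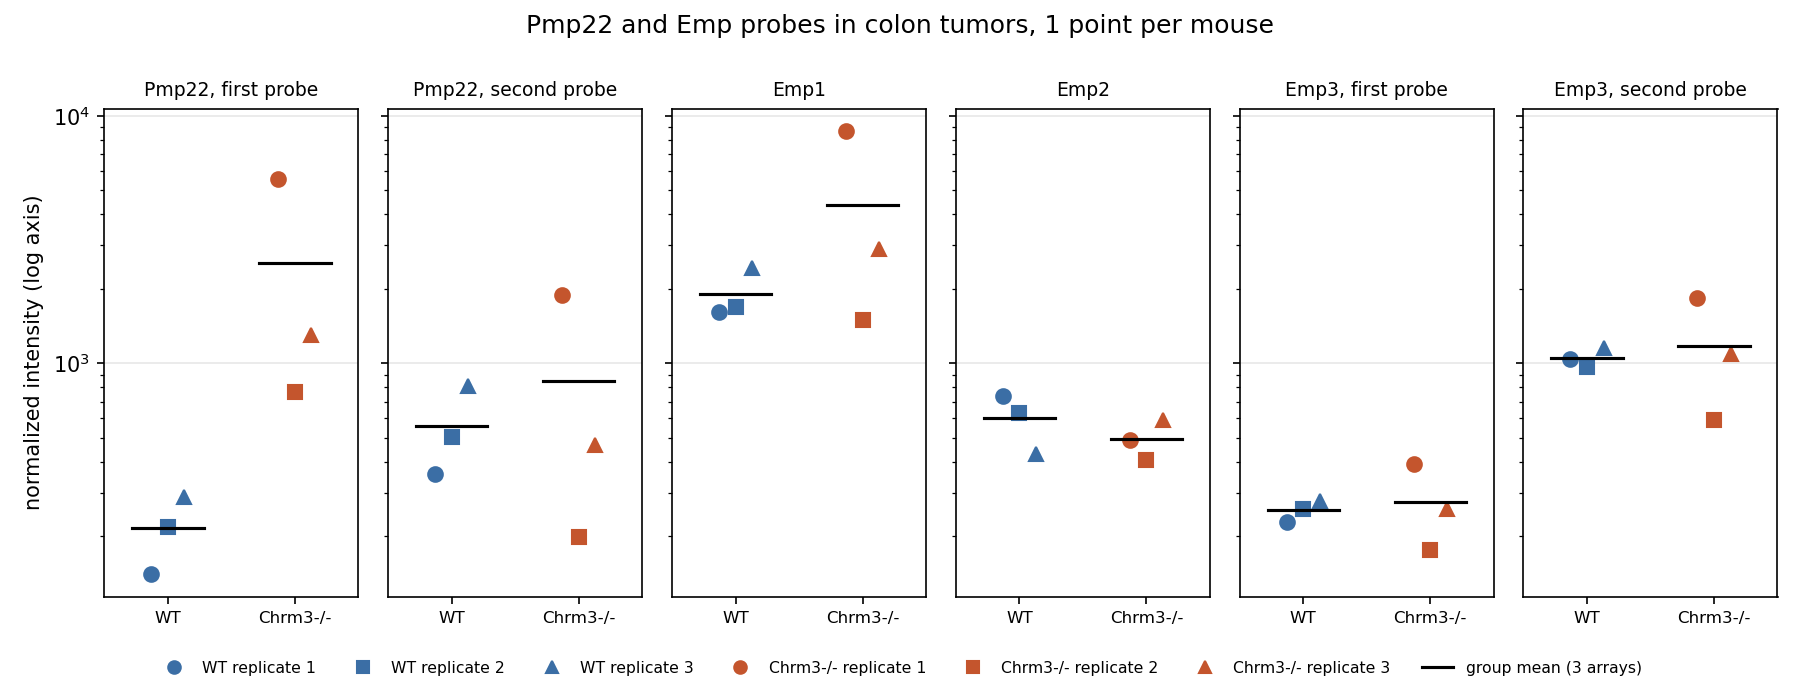
Normalized intensity (log axis) of the 6 probes of Pmp22, Emp1, Emp2 and Emp3 in WT and Chrm3-/- colon tumors, 1 point per mouse with its replicate number as the symbol and the group mean as a line. The first Pmp22 probe is the panel in which the genotypes do not overlap, with WT at 140.1 to 287 and Chrm3-/- at 764 to 5569.

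Within each genotype, the Pmp22 probes ordered the tumors alike. Both were highest in Chrm3-/- replicate 1, then replicate 3, then replicate 2, and in WT both were highest in replicate 3, then 2, then 1. The highest Chrm3-/- array exceeded the lowest by 7.29-fold at the first probe and 9.49-fold at the second, and in WT by 2.05-fold and 2.29-fold. The discordance therefore lay in the step between the genotypes and not in the ranking of the tumors within them.

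The ratio of the first to the second Pmp22 probe on the same array shows this step with the variation between tumors taken out. Its own size depends on how each probe binds and has no meaning in itself, so only its shift between arrays is described. The ratio was 0.395, 0.434 and 0.354 in WT replicates 1, 2 and 3, a mean of 0.394 ± 0.0400 (SD, n = 3). Among the Chrm3-/- tumors it was 2.95, 3.85 and 2.78, a mean of 3.19 ± 0.574 (SD, n = 3). The Chrm3-/- ratios lay close together and far above those of WT, 8.10-fold higher by the means, and replicate 1 was not the highest of them. Without that array the Chrm3-/- mean was 3.31. The ratio shows unequal change of the 2 signals and does not say which one changed.

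Emp3, the other gene of the family with 2 probes, showed no such step. The ratio of its first to its second probe was 0.221, 0.265 and 0.240 in WT and 0.213, 0.300 and 0.236 in Chrm3-/- replicates 1, 2 and 3. The Chrm3-/- values lay on both sides of the WT values.

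**Figure D2:**
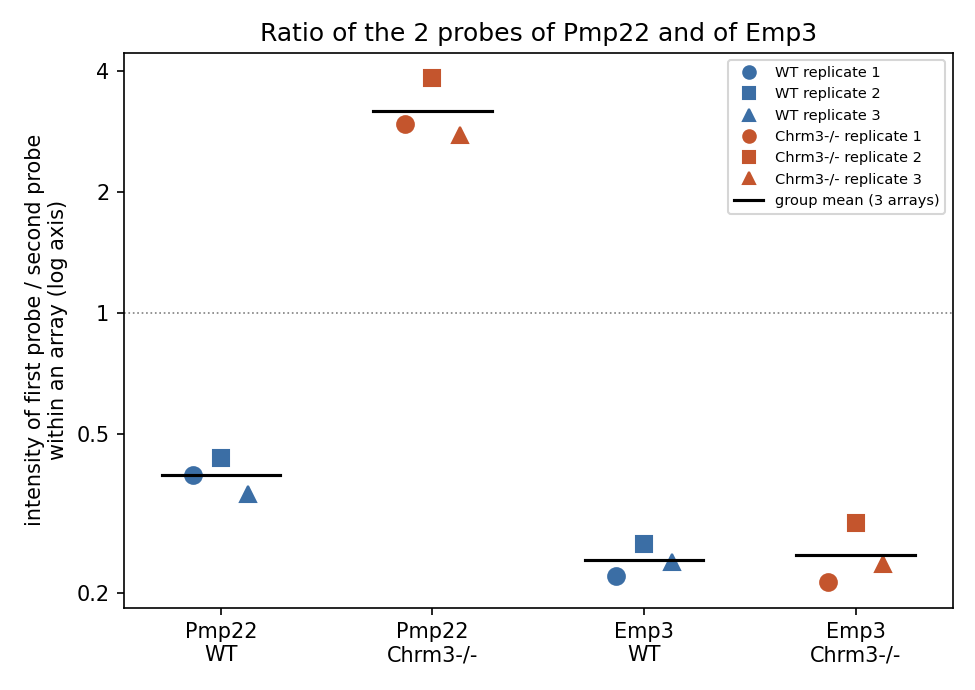
Ratio of the intensity of the first to that of the second probe of the same gene on each array (log axis), for Pmp22 and Emp3 in WT and Chrm3-/- tumors, with group means as lines. The Pmp22 ratio is 0.354 to 0.434 in WT and 2.78 to 3.85 in Chrm3-/- tumors, whereas the Emp3 ratio spans 0.213 to 0.300 over both genotypes.

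Among 10080 pairs of tested probes of the same gene, from 4772 genes, the arrays of the genotypes did not overlap in the log2 ratio of 13.6%. The median size of the genotype shift was 0.13 on the log2 scale and the 95th percentile 0.55. The shift for Pmp22 was 2.71, the 9th largest, and that for Emp3 was 0.03, with 87.5% of pairs as large. Only 20 pairs, 0.198% of all and from 16 genes, shifted by at least 2. The SD of the Pmp22 log2 ratio within a genotype was 0.17, against a median of 0.20 over all pairs. Pmp22 was chosen for this shift, so its place among the pairs is a description.

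**Figure D3:**
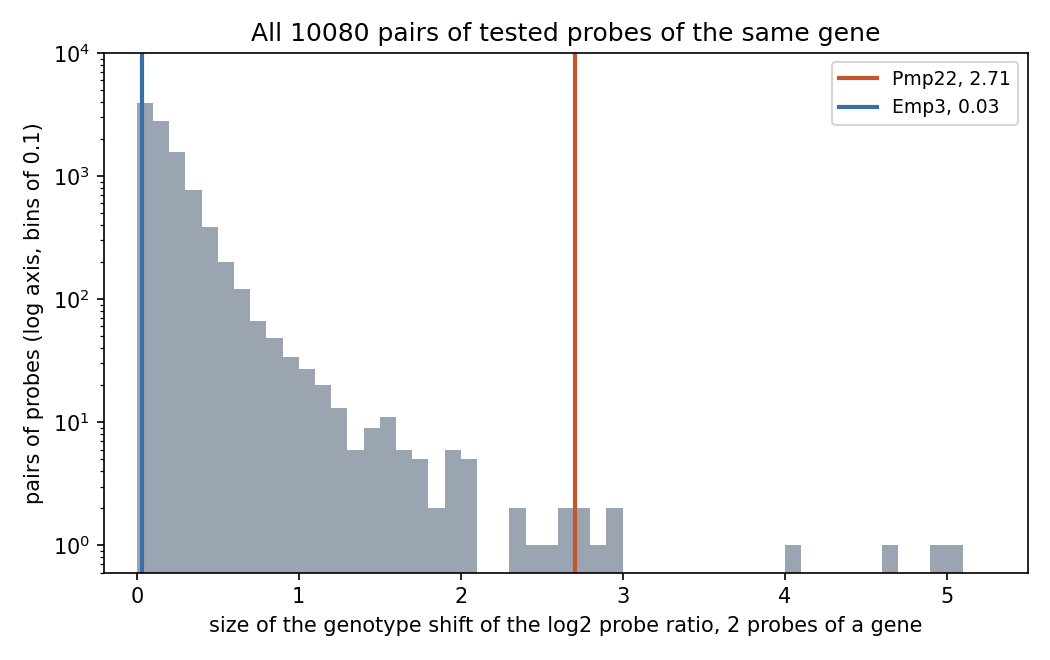
Number of probe pairs (log axis) by the size of the Chrm3-/- minus WT shift in the log2 ratio of 2 probes of a gene, for all 10080 pairs, in bins of 0.1. Pmp22 at 2.71 lies in the far tail and Emp3 at 0.03 in the tallest bar.

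None of the 4 Emp probes passed an adjusted p of 0.05 in limma. Their unadjusted p-values in limma ran from 0.201 to 0.972, so 0 of 4 also fell under 0.05 before adjustment, as 4.82% of all tested probes did. For a single probe, an exact permutation test of 3 against 3 mice cannot go below 0.1.

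Emp1, which is induced during squamous differentiation of epithelia, read 1606, 1681 and 2417 in WT replicates 1, 2 and 3, a mean of 1901 ± 448 (SD, n = 3). Chrm3-/- replicates 1, 2 and 3 read 8684, 1495 and 2885, a mean of 4355 ± 3814 (SD, n = 3). Chrm3-/- replicates 1 and 3 lay above all WT arrays and replicate 2 below them. The log2 fold change was 0.83 (standard error 0.59, 95% interval -0.56 to 2.22, adjusted p = 0.991 in limma). It was 0.15 without Chrm3-/- replicate 1 and 1.40 without Chrm3-/- replicate 2, and neither value passed.

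Emp2, which binds integrins and affects their transport to the cell surface, read 735, 631 and 429 in WT and 490.3, 405 and 590.2 in Chrm3-/- tumors. Group means were 598 ± 156 and 495 ± 92.7 (SD, n = 3), and the groups overlapped. The log2 fold change was -0.23 (standard error 0.24, 95% interval -0.81 to 0.34, adjusted p = 0.991 in limma). It was -0.08 without WT replicate 1, -0.11 without Chrm3-/- replicate 2 and -0.44 without WT replicate 3, and none of these passed. Emp2 was the member in which Chrm3-/- replicate 1 did not stand out, at 0.831 times the median of the other arrays. Its highest Chrm3-/- array exceeded the lowest by 1.46-fold, less than the 1.71-fold of WT.

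Emp3 read 229, 257 and 277 in WT and 391, 176 and 257 in Chrm3-/- tumors at its first probe (ILMN_1248028). At the second (ILMN_2984744) it read 1035, 968 and 1156 in WT and 1836, 587 and 1089 in Chrm3-/- tumors. Both probes had their highest value in Chrm3-/- replicate 1 and their lowest in Chrm3-/- replicate 2. Their log2 fold changes were 0.04 (standard error 0.27, 95% interval -0.59 to 0.68) and 0.01 (standard error 0.37, 95% interval -0.87 to 0.90), with adjusted p-values of 0.994 and 0.998 in limma. The 2 probes thus gave close values for the same contrast in which the Pmp22 probes parted.

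The probes of the family followed each other across arrays to different degrees, as Pearson's r of log2(value + 50) over the 6 arrays shows. These correlations are given as descriptions, since 1 array lies far from the rest and the points share the genotype difference. The second Pmp22 probe followed Emp3, with r of 0.986 for its first probe and 0.945 for its second, where the Emp3 probes followed each other at 0.974. Without the extreme Chrm3-/- replicates 1 and 2, these were 0.943, 0.623 and 0.528 over 4 arrays. The first Pmp22 probe had r of 0.574 with the second and also 0.574 with the first Emp3 probe. It was nearer to Emp1, at 0.862, which fell to 0.354 without WT replicate 1 and Chrm3-/- replicate 1. Emp2 had r between -0.39 and 0.17 with the other 5 probes.

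Other genes were ranked by the same measure over 12192 genes. For the first Pmp22 probe the most alike were Arcn1, a coat protein of vesicles between the Golgi and the endoplasmic reticulum, with r of 0.992, then Tmem171, Rpain, Apex2 and Ap1m1, the last at 0.986. Arcn1 read 46.4 to 51.7 in WT and 71.9 to 145 in Chrm3-/- tumors, also highest in Chrm3-/- replicate 1. For the second probe they were Tmem109, Pitpnm3, Cmpk1, Tmem82 and Rdh16, with r of 0.994 to 0.996. Some of these were dim, with Tmem171, Apex2 and Pitpnm3 at no more than 18.0, 17.7 and 21.2 on any array. The 2 sets of 5 held no gene in common, which is no further result. With r of 0.574 between the 2 probes, no gene can follow both this closely. An r of at least 0.9 was reached by 186 genes (1.53%) for the first probe and by 632 (5.18%) for the second. A high r over 6 arrays was thus not confined to the genes named.

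Emp1 was most like Sstr2, a somatostatin receptor, with r of 0.996, followed by Syngr3, Adam23, Selenop and Sval1. Sstr2 and Syngr3 were dim in WT, at no more than 13.6 and 8.66. Emp2 was most like Ccdc62, Tbc1d24, Nobox, Col27a1 and Bhlhb9, with r of 0.978 to 0.994, and 4 of these 5 read at most 17.0 on any array. The first Emp3 probe was most like Ugt1a10, Ppm1h, Ostf1, Ifi30 and Plgrkt, with r of 0.997 to 0.999. The second was most like Rgs10, Nans, Aldh1l2, Mcoln2 and Igsf5, with r of 0.988 to 0.995. At least 0.9 was reached by 794 genes (6.51%) for Emp1, 646 (5.30%) and 514 (4.22%) for the Emp3 probes and 46 (0.377%) for Emp2.

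Genes of the family and of its partners were then counted, each by its brightest tested probe. For Pmp22 this was the first probe, so the family list and its sum hold values by which Pmp22 was chosen. Of 10 listed family members, 9 had a probe and 6 were tested. Apart from the 4 genes above, Tmem47 had a log2 fold change of -0.17 and Nkg7, a granule protein of cytotoxic lymphocytes, of 0.14, and neither passed. Lim2 of the lens fiber membrane, Perp of desmosomes and Tmem114 were too dim to test, at no more than 5.64 on any array. Among 14 tested integrins, laminins, caveolins and other partners of the family, 0 passed in limma, 7 had values above and 7 below WT, and the median log2 fold change was -0.09, against 0.01 over all tested probes. Itga3, an integrin that binds laminin, had the smallest p of them, with a log2 fold change of -0.59 (adjusted p = 0.991 in limma). Of 6 tested growth arrest specific genes, the class in which Pmp22 is Gas3, 0 passed, 3 lay above and 3 below WT, with a median of 0.06. Gas6, a ligand of the Axl receptors, was at 0.41 and Gas8 at -0.26.

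Markers of Schwann cells, from which PMP22 is best known, and of enteric glia overlapped between the genotypes in sum. Of 10 tested, 0 passed in limma, 6 lay above and 4 below WT, and the median log2 fold change was 0.02, and -0.08 without Chrm3-/- replicate 1. Their summed intensity was 766 to 1249 in WT and 811 to 1269 in Chrm3-/- tumors. Mal, the brightest of them on each WT array, weighs on this sum. It read 269 to 511 in WT and 160, 437 and 264 in Chrm3-/- replicates 1, 2 and 3. Of the 10, 6 were highest in Chrm3-/- replicate 1. Ngfr, the low-affinity neurotrophin receptor, had the smallest p of the list, with a log2 fold change of -0.81 (adjusted p = 0.991 in limma). Ngfr read 72.1 to 235 in WT and 32.5 to 64.3 in Chrm3-/- tumors, with no overlap, as on 10.7% of all tested probes. Mbp, a myelin protein, read 196 to 222 in WT and 162 to 475 in Chrm3-/- tumors. Sox10, the transcription factor that defines these cells, read 28.7 in Chrm3-/- replicate 1 and at most 3.83 on the other arrays, and S100b was under 2 on all 6.

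Smooth muscle markers moved with Chrm3-/- replicate 1, the array in which Pmp22, Emp1 and Emp3 were highest. All 12 tested were highest there, and their summed intensity was 11582 to 16884 in WT and 52924, 15451 and 20287 in Chrm3-/- replicates 1, 2 and 3. The median log2 fold change was 0.87, and 0.18 without that array. All 12 had a positive log2 fold change and 0 of 12 passed in limma. In Chrm3-/- replicate 2, several of them read below every WT array. Myl9, a myosin light chain, had the smallest p, with a log2 fold change of 1.48 (adjusted p = 0.898 in limma). It read 484 to 764 in WT and 4250.4, 1317 and 1213 in Chrm3-/- replicates 1, 2 and 3. The genotypes did not overlap, which held for 10.7% of all tested probes. How many of all tested probes were highest in Chrm3-/- replicate 1 was not counted. In other lists, 7 of 15 tested colon epithelial markers and 2 of 12 tested fibroblast markers were highest there.

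The sums of enteric neuron and immune markers were also highest in Chrm3-/- replicate 1. Summed over 8 tested neuron markers, intensity was 406 to 477 in WT and 1459, 203 and 568 in Chrm3-/- replicates 1, 2 and 3. Much of this was Vip, at 183 to 250 in WT and 1148, 23.7 and 440 in Chrm3-/- replicates 1, 2 and 3. Of the 8, 5 were highest in Chrm3-/- replicate 1, and 6 lay above WT. The 2 below, Ret at -0.81 and Tubb3 at -0.20 on the log2 scale, had the smallest p. Over 10 immune markers the sum was 13874 to 18671 in WT and 35504, 8596 and 15780 in Chrm3-/- tumors. Both sums were lowest in Chrm3-/- replicate 2, where the second Pmp22 probe, Emp1, Emp2 and both Emp3 probes were also lowest. No gene of either list passed in limma, and their median log2 fold changes of 0.15 and 0.21 became -0.11 and -0.28 without Chrm3-/- replicate 1.

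Fibroblast markers went the other way. Of 12 tested, 11 lay below WT and 0 passed in limma, with a median log2 fold change of -0.49, and -0.50 without Chrm3-/- replicate 1. Their sum was 16694 to 20910 in WT and 11827 to 13680 in Chrm3-/- tumors, with no overlap, and Col1a1 had the smallest p, at -1.52 (adjusted p = 0.228 in limma). Colon epithelial markers summed to 47623 to 61740 in WT and 49072 to 64966 in Chrm3-/- tumors, with a median of 0.05 over 15, and -0.05 without Chrm3-/- replicate 1. Endothelial markers had a median of -0.05 over 12, with 4 above and 8 below WT. Squamous and basal epithelial markers, which bear on Emp1, had a median of 0.01 over 9, and 0.23 without Chrm3-/- replicate 1. They were lowest in sum in Chrm3-/- replicate 1, at 2782, the array in which Emp1 was highest. Krt14 weighs on this sum, at 795 to 3615 in WT and 129, 781 and 5184 in Chrm3-/- replicates 1, 2 and 3. Sprr2a1, the 1 of these 9 genes that was highest in Chrm3-/- replicate 1, read 2261 there and 526 to 1763 on the other arrays. No gene of these last 3 lists passed in limma. The part of any of these cell types in the Pmp22 and Emp values was not tested.

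**Figure D4:**
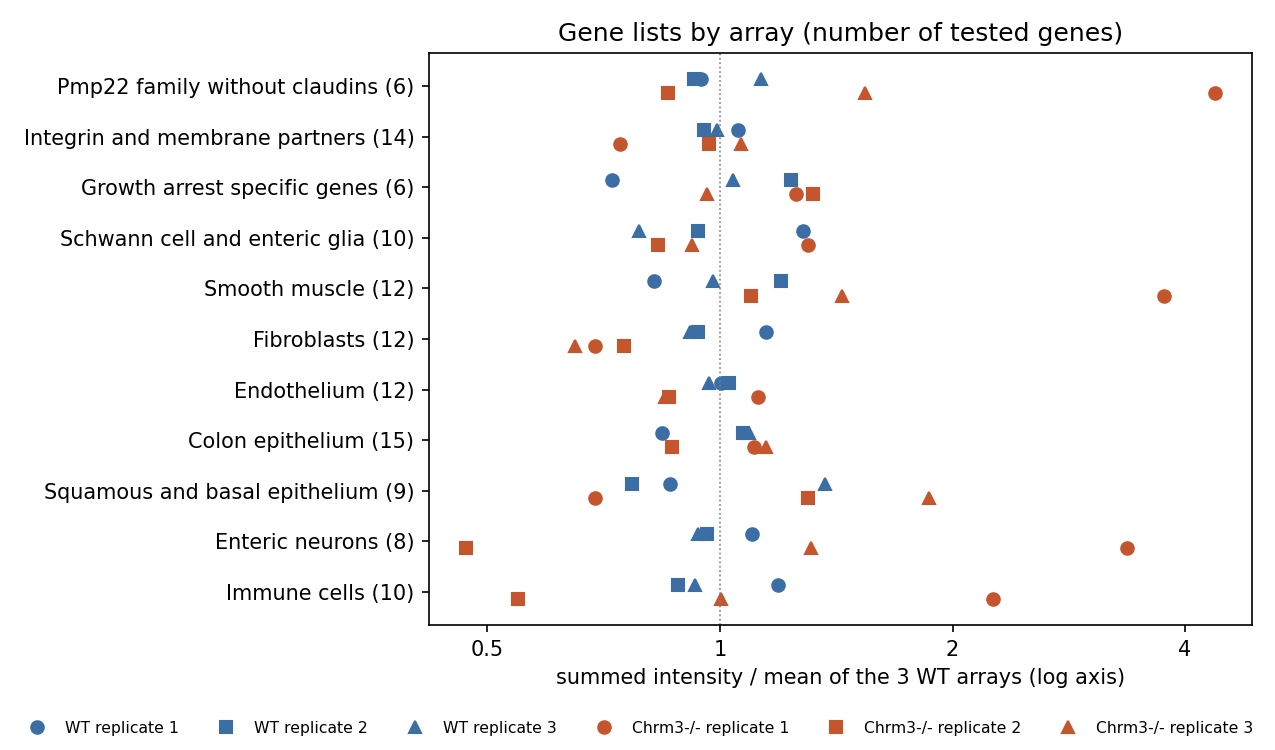
Summed intensity of the tested genes of each list on each array, divided by the mean of the 3 WT arrays (log axis), with the number of genes in brackets. Chrm3-/- replicate 1 lies far above the other arrays in the sums of smooth muscle, enteric neuron and immune markers and of the Pmp22 family. It does not in the sum of Schwann cell and glia markers, although 6 of those 10 genes were highest there. Mal weighs on that sum and was lowest in that array. The neuron sum in that array is largely Vip, and the family sum holds the first Pmp22 probe. All 3 Chrm3-/- arrays lie below WT for fibroblast markers.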

How the data were processed

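Colon tumor RNA of 3 WT and 3 Chrm3-/- mice, grouped by the sample labels, was hybridized to MouseWG-6 v2.2 BeadChips. The authors normalized the probe intensities by cubic splines with no subtraction of background. The deposited intensities are linear, with the same set of values on every array, 46.1% of them under 2 and mostly evenly spaced. No member probe was under 2. The 6 columns of a second table, of signals not yet normalized, could not be matched to samples by name and were not used. Probe sequences were not used here, so the place of each probe on its transcript is not given.

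Intensities were analyzed as log2(value + 50). Probes with a mean at or above the median were fitted in limma 3.58.1 (R 4.3.3) by lmFit and eBayes with a trend and genotype as the only term, with 4 residual and 2.87 prior degrees of freedom. P-values were two-sided and adjusted over all tested probes (Benjamini-Hochberg), and 0.05 was the threshold. Standard errors had a median of 0.19, and 3 arrays a genotype limit the precision. The fit was also run on simulated data with the spread of the WT arrays and shifts larger than those of the Emp probes. That run does not cover the wider spread of the Chrm3-/- arrays. Of 45281 probes, 34885 had 1 symbol in the platform annotation, 18 several and 10378 were not listed, and 34818 were matched to the GRCm38.p6 gene table. Promoter windows are from RefSeq. Python 3.11.15, pandas 2.3.3, numpy 2.4.6, scipy 1.17.1 and matplotlib 3.10.9 were used.

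The genes and the 11 gene lists were chosen with earlier results of these data known. Named genes were all probes of the 4 genes, the 5 genes most like each probe, and up to 4 genes with the smallest p in each list. Nkg7, S100b, Lim2, Perp, Tmem114, Vip, Mal, Krt14, Sprr2a1 and Cdx2 fall outside this rule and were chosen after their values were seen. Alternatives were other offsets, filters, variance models, array weights, the replicate block, the methods' t-test, averaged probes, and leaving out each array.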

Additional observations from a re-analysis of the deposited data

How the results depend on the processing

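The shift between the Pmp22 probes was 2.71 on the log2 scale and became 2.90 with log2(value + 16), 2.48 with log2(value + 100) and 3.01 on a plain log2 scale, by the construction of the offset. Leaving out each array in turn gave 2.61 to 2.79 for this shift, 2.02 to 3.42 for the first Pmp22 probe and -0.69 to 0.79 for the second, which changes direction without Chrm3-/- replicate 1 (-0.69), without WT replicate 1 (-0.13) and with array weights (-0.19). The number of Emp probes that passed was 0 under every setting run, including 0 to 0 with each array left out. Of 64 Emp log2 fold changes under other settings, none passed, with a lowest adjusted p of 0.307 in limma. In 24 the setting cannot change the value. Of the other 40, 34 kept their direction and 6 turned. Emp2 became 0.0074 with array weights. The first Emp3 probe became -0.02 without WT replicate 1 and -0.20 without Chrm3-/- replicate 1. The second became -0.04 without WT replicate 2, -0.37 without Chrm3-/- replicate 1 and -0.005 without Chrm3-/- replicate 3. Leaving out Chrm3-/- replicate 2 moved the Emp3 probes to 0.28 and 0.41. The cause was not tested.

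The replicate block left the Pmp22 shift at 2.71 and 0 Emp probes past the threshold, and cut the calls over all probes from 28 to 1. Arrays with the same replicate number had correlations of their deviations of -0.15, -0.03 and 0.02, and those with different numbers -0.14 to 0.15. This gives no sign that the numbers pair the mice, but 3 arrays a genotype could miss such a pairing. Calls over all probes were 41 with log2(value + 16), 45 on a plain log2 scale, 12 without a filter, 252 with array weights, whose estimate did not converge, 9 with the methods' t-test after adjustment (1238 before), and 4 to 31 with each array left out. Normexp and quantile normalization of the earlier signals and a slide block were not run, because those columns match no sample and no slide is given. Dim probes limit the marker lists, since values under 2 are not measured signals.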
